A study of Mus musculus with 2 samples.

Results

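The genes described here encode enzymes of amino acid breakdown and of the urea cycle. They are the 4 urea cycle genes Cps1, Ass1, Asl and Arg1 and the 5 amino acid catabolism genes Sds, Gpt, Got1, Tat and Hal. CpG cytosines were taken inside the RefSeq span of a gene or within 5 kb of it, where each library had 5 reads or more. This gave 709 cytosines at the 9 genes, out of 2518413 cytosines in all on the autosomes and chromosome X, and 42758 genes of the RefSeq table had at least 1 such cytosine. DNA methylation had been measured by reduced representation bisulfite sequencing, which reads CpGs in fragments cut at CCGG and TCGA sites. The groups were 1 control library and 1 fasted library of liver, both from CD-1 mice, an outbred stock, 12 weeks old. The labels call the control library only control liver and give the housing of all mice with chow and water at will. The mice of the fasting experiment went without food for 12 hr before the liver was taken. The labels give neither sex nor whether a library held 1 mouse or several, so each value comes from 1 library and the spread between animals is unknown. Liver is a mixture of cells, and a shift in the cell mixture cannot be told apart from a change of methylation within cells.

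As background, the urea cycle turns the ammonia released from amino acids into urea, and its full set of enzymes is found mainly in hepatocytes. In a fast, amino acids from muscle become a source of carbon for glucose, and the enzymes that remove their nitrogen are known to be induced by glucagon and glucocorticoids. CpG-rich starts of active genes are usually free of methylation, whereas gene bodies are usually methylated.

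The libraries held 49253627 and 51276705 reads over cytosines in the control and the fasted sample. At the 9 genes the median depth was 13 and 15 reads per cytosine, and 474 of the 709 cytosines reached 10 reads in each of them. Start and end windows of marker genes could not check the tissue, since they were sparsely read and their levels did not separate the cell types. Of 9 hepatocyte markers 4 were tested, at 2.64 to 33.0% in control, and 1 of 4 immune markers, Cd3e, at 60% on 3 cytosines. Some windows of other cell types were also low in control, at 1.53% for Kdr (endothelial) and 4.73% and 15.9% for Lrat and Des (stellate). Epcam (bile duct) stood at 12.7%. The low ends of Cdh5 (endothelial) and Krt19 (bile duct) were high, at 60% and 71.7%. The widest differences were -13.6 points at the hepatocyte marker Apob and 28 points at the endothelial marker Cdh5. None of the 13 measured windows of hepatocyte, endothelial, immune, bile duct and stellate cell markers was called.

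Annotated starts were known for 4 of the 9 genes, Ass1, Tat, Got1 and Hal. The 250 bases before these starts are shown with their CpGs and enzyme sites, since the assay reads CpGs in fragments cut at such sites (RefSeq, GRCm38.p6, 5′ to 3′ on the gene's strand, every CG in capitals).
Ass1, chr2:31470020-31470269, plus strand: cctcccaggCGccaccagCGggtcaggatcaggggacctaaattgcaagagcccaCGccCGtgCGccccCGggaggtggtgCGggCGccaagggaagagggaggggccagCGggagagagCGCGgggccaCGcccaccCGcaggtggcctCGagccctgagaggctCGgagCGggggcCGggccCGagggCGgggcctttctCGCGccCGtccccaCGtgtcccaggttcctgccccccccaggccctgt
Got1, chr19:43524606-43524855, minus strand: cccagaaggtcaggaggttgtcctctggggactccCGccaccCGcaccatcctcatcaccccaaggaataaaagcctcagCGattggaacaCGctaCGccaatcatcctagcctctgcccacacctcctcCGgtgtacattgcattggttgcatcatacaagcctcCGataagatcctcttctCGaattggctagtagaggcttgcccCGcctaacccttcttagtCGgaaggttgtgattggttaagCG
Tat, chr8:109990186-109990435, plus strand: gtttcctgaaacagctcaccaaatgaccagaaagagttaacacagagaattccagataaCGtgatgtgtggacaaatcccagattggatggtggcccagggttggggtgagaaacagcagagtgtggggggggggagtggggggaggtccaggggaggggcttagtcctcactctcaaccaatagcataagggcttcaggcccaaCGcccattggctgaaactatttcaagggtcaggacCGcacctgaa
Hal, chr10:93488518-93488767, plus strand: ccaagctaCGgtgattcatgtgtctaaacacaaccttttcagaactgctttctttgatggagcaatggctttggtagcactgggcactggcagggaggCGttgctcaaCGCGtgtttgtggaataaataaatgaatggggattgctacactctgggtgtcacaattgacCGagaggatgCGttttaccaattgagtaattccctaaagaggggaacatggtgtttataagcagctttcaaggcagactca
The Ass1 sequence holds 23 CGs, with 2 CCGG and 1 TCGA, and 18 of its CpGs were measured. The Got1 sequence holds 11 CGs, with 1 CCGG and 1 TCGA, and 8 of its CpGs were measured. The Tat and Hal sequences hold 3 and 6 CGs and neither CCGG nor TCGA, and 0 of their cytosines were listed in either library. CCGG and TCGA read the same on both strands and cannot overlap each other. Of 32851 promoter entries in the RefSeq table, 47.1% hold CCGG within these 250 bases, 18.5% hold TCGA and 54.6% hold either.

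A start window ran from 1000 bp before to 500 bp after the annotated start. For Cps1, Asl, Arg1, Sds and Gpt, whose start and strand were not used here, a window of the same size was placed at each end of the RefSeq span, reaching 1000 bp outside and 500 bp inside, and is called the low or high end by its coordinate. This made 14 windows, of which 5 held 0 measured cytosines (both ends of Cps1, the low ends of Arg1 and Gpt, and the start of Tat) and 1, the low end of Asl, held 2. The other 8 windows had at least 3 cytosines and were tested. A body ran from 500 bp after the annotated start to the far end of the gene or, where both ends were used, between the points 500 bp inside them. Levels are means over cytosines, and differences are fasted minus control in percentage points, with a 95% interval for counting error in parentheses. A region was called where Fisher's exact test on its reads gave an adjusted p under 0.05 and the levels were 10 points or more apart. Such a test compares 2 libraries, not the conditions, and since neighbouring cytosines share molecules its intervals are too narrow and its p-values too small.

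Of the 8 tested windows, 1 was called, the high end of Sds, which fell in the fasted library. Among all 25830 windows tested at gene starts and ends 1.31% were called, 0.678% as lower. Of the 8 windows 3 had an unadjusted p under 0.05, against 16.4% of all windows. Of the 9 bodies 0 were called by Fisher's exact test, with 2, those of Sds and Got1, at an unadjusted p under 0.05, and among all 25349 bodies 1.47% were called and 20% had an unadjusted p under 0.05. Taken over the span with 5 kb on each side, 0 of the 9 genes were called, against 1.3% of 39116 genes tested, and 1, Sds, had an unadjusted p under 0.05. The median difference of the 8 windows was -0.45 points and that of the 9 bodies -0.52 points, against 0.0048 and 0.00704 points over all windows and bodies tested. The bodies of the 9 genes had a median of 54.0% in the control library, and the median over all bodies was 71.3%.

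**Figure D1:**
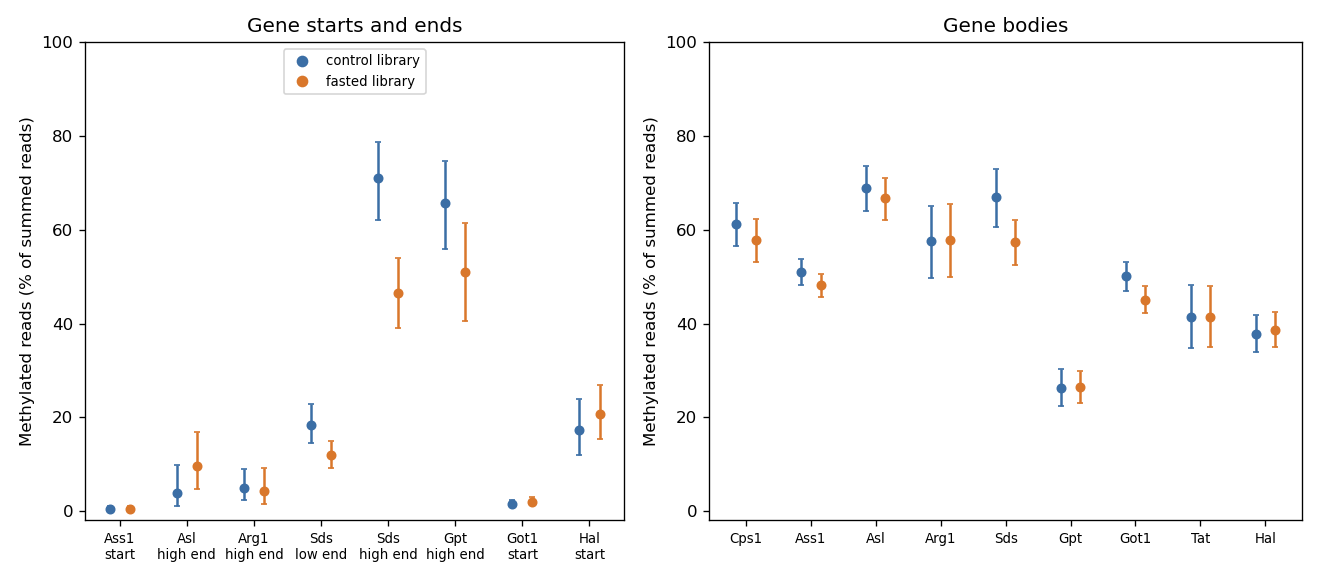
Share of methylated reads in the control library (blue) and the fasted library (orange) over the summed reads of each tested start or end window (left) and each gene body (right), with exact 95% binomial intervals for counting error. The intervals are apart only at the high end of Sds, at 71.0% and 46.5%, and the starts of Ass1 and Got1 stay near 0 in both libraries.

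Cps1 encodes the mitochondrial carbamoyl phosphate synthetase, which brings ammonia into the urea cycle. It lies on chromosome 1 (67122426 to 67231267, mm10), and its 34 measured cytosines were sparse for a span of 108842 bp. Its body stood at 62.8% in control and 57.0% in fasted liver, a difference of -5.80 points (-11.8 to 0.169, 32 cytosines, adjusted p = 0.632, Fisher's exact test). Of these cytosines 21 were lower and 8 higher in the fasted library. All 5 of its stretches had a lower value in the fasted library, with differences from -8.98 to -3.71 points, and none was called. A stretch here is a run of at least 3 measured cytosines with gaps of up to 100 bp. The widest of these differences lay 102329 to 102426 bp from the low end of Cps1, at 71.9% and 62.9%. The lowest stretch of Cps1 lay 50224 to 50244 bp from the low end, at 37.7% and 29.2%, and the highest, 48413 to 48586 bp from it, at 86.0% and 80.3%.

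Ass1, the argininosuccinate synthase that joins citrulline to aspartate, had the most measured cytosines of the 9 genes, 181 (chromosome 2, 31470270 to 31520670, plus strand). Its start window stood at 0.582% in control and 0.402% in fasted liver over 64 cytosines, a difference of -0.18 points (-2.19 to 1.83). Of these cytosines 55 had the same level in both libraries. The 29 cytosines measured within the printed Ass1 sequence averaged 1.11% and 0.369%. The unmethylated stretch ran from -195 to 394 bp relative to the start, and stretches at 538 to 754 bp were still at 0 to 3.33% in both libraries. Between 4558 and 12684 bp after the start Ass1 stood at intermediate levels, with 4 stretches at 25 to 35.2% in control and 24.5 to 40.9% in fasted liver. Farther in, levels varied from stretch to stretch, with 27.2% and 12.3% at 19727 to 19913 bp and 90.3% and 86.4% at 27433 to 27540 bp. The Ass1 body as a whole stood at 54.0% and 50.1%, a difference of -3.88 points (-6.99 to -0.774, 113 cytosines) that did not pass the test (adjusted p = 0.408, Fisher's exact test). The widest differences among its stretches were -17.8 points at 18891 to 18993 bp, from 91.7 to 73.9% with 5 to 10 reads per cytosine, and 15.2 points at 18524 to 18567 bp, from 84.8 to 100%. These neighbouring stretches differed in opposite directions, and neither was called.

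Asl, the argininosuccinate lyase that releases arginine, lies on chromosome 5 (130011258 to 130024381). Its high end was almost unmethylated, at 3.57% in control and 8.24% in fasted liver over 14 cytosines, a difference of 4.67 points (-3.59 to 12.9). The 7 cytosines from 58 to 24 bp inside that end stood at 0% and 1.79%, and the 7 cytosines from 151 to 273 bp beyond it at 7.14% and 14.7%, with 5 to 11 reads each. The Asl body stood at 69.7% and 71.0%, a difference of 1.36 points (-3.47 to 6.20). The widest difference among the 5 stretches of Asl was -8.93 points, 1670 to 1767 bp beyond the high end, from 57.5 to 48.6% over 4 cytosines, within the neighbouring gene Gm40334.

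Within the Asl body 1 CpG differed on both of its strands. Its plus strand (position 130016494) went from 93.8% of 32 reads to 50% of 20, and its minus strand (position 130016495) from 100% of 19 reads to 52.5% of 40. The minus strand had the smallest p of all 709 cytosines, with an adjusted p of 0.176 in Fisher's exact test, and was not called. With both strands merged the CpG stood at 96.1% of 51 and 51.7% of 60 reads and was called (adjusted p = 0.000178, Fisher's exact test). The nearest other CpG of the stretch, 5 bp away, stood at 100% and 100% on the plus and at 100% and 92.5% on the minus strand, and the stretch of 10 cytosines as a whole at 87.4% and 87.1%. Of the other cytosines of the stretch, 1 had an unadjusted p under 0.05, on the minus strand at position 130016526, and it was higher in the fasted library (60% of 10 reads, 95.2% of 21). Read depths on the plus strand of this stretch were 32 or 16 in control and 20 or 10 in fasted liver, so that some cytosines had 2 times the depth of others. Whether mates of a read pair were counted separately is not given in the labels. With strands merged and all counts halved, an alternative added after seeing the data, the CpG was not called (adjusted p = 0.873, Fisher's exact test).

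Arg1, the arginase that splits arginine into urea and ornithine, lies on chromosome 10 (24915207 to 24927470). The high end of Arg1 stood at 5.45% in control and 4.95% in fasted liver over 13 cytosines, a difference of -0.50 points (-6.94 to 5.94). All of these cytosines belonged to a stretch of 16 that lay outside the gene, 799 to 1023 bp beyond its high end, at 5.12% and 5.27%. That stretch also lies within Gm40616, an overlapping noncoding RNA gene. The neighbouring stretches on either side were methylated and also lie within Gm40616. The stretch inside Arg1, 10927 to 10989 bp from the low end, stood at 56.9% and 64%. The stretch from 2194 to 2279 bp beyond the high end of Arg1 stood at 88.6% and 92.9%. The Arg1 body stood at 57.0% and 61.6%, a difference of 4.65 points (-5.04 to 14.3, 11 cytosines).

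Sds encodes the serine dehydratase that turns serine into pyruvate and ammonia, and lies on chromosome 5 (120476547 to 120483932). The high end of Sds was the only called window of the 9 genes. It fell from 70.1% to 46.8%, a difference of -23.4 points (-34.3 to -12.5) with an adjusted p of 0.00178 by Fisher's exact test. Summed over its cytosines, 71.0% of 124 read counts were methylated in control (exact 95% interval 62.1 to 78.8) and 46.5% of 185 in fasted liver (39.1 to 54.0). A read was counted at each cytosine it covered, so these intervals are too narrow. All 10 cytosines of this window were lower in the fasted library, but they share reads and are not 10 separate observations. They formed a single stretch inside the gene, 7115 to 7270 bp from its low end (120483662 to 120483817), outside the neighbouring gene Plbd2. Of all 25830 windows tested, 119 (0.461%) had a decrease at least as large.

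The Sds decrease was seen on both strands. The 5 plus-strand cytosines stood at 66.7% in control and 36.8% in fasted liver, with 9 and 19 reads each. The 5 minus-strand cytosines stood at 73.6% and 56.7%, with 15 to 16 and 18 reads each. With a minimum of 10 reads, where the plus strand drops out, the difference was -16.9 points and the call was lost (adjusted p = 0.199, Fisher's exact test). The call was also lost with every read count halved (adjusted p = 0.291) and with the reads divided by the cytosine number (adjusted p = 1, all by Fisher's exact test).

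Other parts of Sds had values on the same side without being called. Its low end stood at 21.8% and 13.5% over 20 cytosines, a difference of -8.25 points (-14.0 to -2.50, adjusted p = 0.106, Fisher's exact test). Here the plus strand stood at 25.4% and 9.04%, and the minus strand at 18.2% and 18.0%, and the difference was on the plus strand. Among plus-strand cytosines with at least 30 reads in each library the widest gap was at position 120476405, from 22.2% of 36 reads to 0% of 30. With a minimum of 20 reads, 3 of these plus-strand cytosines (120476385 to 120476405) formed a stretch that was called, at 14.8% in control and 0% in fasted liver (adjusted p = 0.00467, Fisher's exact test). Each of the 3 had 36 and 30 reads, 2 times the 18 and 15 reads of the neighbouring plus-strand cytosine at 120476358, and with 18 and 15 they would not have met that minimum. The low end as a whole then differed by -1.35 points. The Sds body stood at 67.4% and 56.6%, a difference of -10.8 points (-18.3 to -3.27, adjusted p = 0.123, Fisher's exact test). Over its span with 5 kb on each side, 49 cytosines of Sds were lower, 15 higher and 9 equal, and the level was 56.6% and 46.7% (adjusted p = 0.0536, Fisher's exact test), which was not called. Of its 9 stretches 7 had a lower value in the fasted library, and the 3 stretches within Plbd2 beyond the high end differed by -3.86 to 3.70 points. Among the 7, the stretch at -3715 to -3627 bp from the low end stood at 15.8% and 4.17%. Its cytosines are also those of the high-end window of Sdsl, which belongs to the other genes described below.

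**Figure D2:**
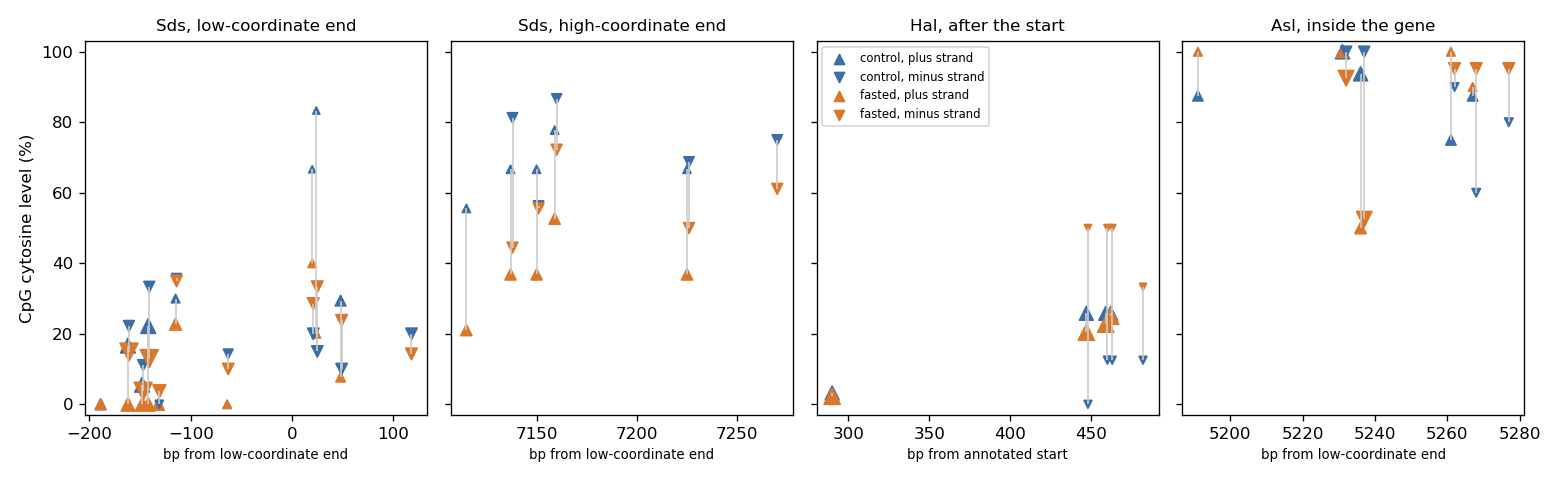
Level of single CpG cytosines in the control (blue) and the fasted library (orange) at the low and high end of Sds, after the start of Hal and inside Asl, against distance in bp, with triangles pointing up for the plus and down for the minus strand, larger triangles for more reads and grey lines joining the libraries. All 10 cytosines at the high end of Sds are lower in the fasted library, the Hal difference is on its thinly read minus strand, and a single Asl CpG drops to 50% and 52.5%.

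Gpt, the alanine aminotransferase that feeds alanine carbon into pyruvate, spans only 2950 bp on chromosome 15 (76696726 to 76699675). Its high end stood at 65.3% in control and 50.4% in fasted liver over 6 cytosines, all lower, a difference of -14.8 points (-27.3 to -2.38, adjusted p = 0.291, Fisher's exact test). These cytosines lay 353 to 450 bp beyond the gene. The widest difference among its stretches, -15.4 points, lay in Ppp1r16a below the low end of Gpt, from 29.5 to 14.1% over 4 cytosines, and was not called. The Gpt body held 2 stretches of opposite kind, 1 almost unmethylated at 1.43% and 1.46%, 1158 to 1322 bp from the low end, and 1 methylated at 81.0% and 78.0%, 2090 to 2342 bp from it. The unmethylated stretch was deeply read, with 20 to 44 reads per cytosine. The flanks of Gpt hold parts of Ppp1r16a, Mfsd3 and Recql4, and a stretch of 18 cytosines in Mfsd3 stood at 0% and 0.327%.

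Got1, the cytosolic aspartate aminotransferase, had 132 measured cytosines (chromosome 19, 43499752 to 43524605, minus strand). Its start window stood at 2.21% in control and 1.82% in fasted liver over 56 cytosines, a difference of -0.39 points (-2.78 to 1.99). The 16 cytosines measured within the printed Got1 sequence averaged 0.260% and 0.595%. Levels were under 3% in both libraries in each of the 6 stretches from 690 bp before to 941 bp after the start, and reached 13.4% and 8.10% at 959 to 873 bp before it. The Got1 body stood at 49.1% and 49.6%, a difference of 0.46 points (-2.84 to 3.76), whereas with each read given equal weight it stood at 50.1% and 45.1%. Neither was called. Stretches inside Got1 ranged from 0% at 640 to 661 bp to 94.0% at 21583 to 21640 bp in the control library. The widest difference, -22.2 points, rested on 3 cytosines of 6 to 8 reads, 4043 to 4055 bp after the start. A stretch 8795 to 8866 bp after the start stood at 17.0% and 30.7%, the largest increase within Got1, and was not called (adjusted p = 0.508, Fisher's exact test).

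Tat, the tyrosine aminotransferase and a classical glucocorticoid-induced liver gene, had no measured cytosine in its start window (chromosome 8, span 109986078 to 109999804, plus strand, start at 109990436). Its body stood at 41.1% in control and 40.6% in fasted liver over 18 cytosines, a difference of -0.52 points (-10.1 to 9.09). These cytosines lay between 8137 and 8944 bp after the start of Tat, and the 3 stretches among them stood at 40.1 to 43.4% and 37.5 to 45.4%. Another 3 cytosines of the span lay before the annotated start and its window, at 83.3% and 80%, and belong to neither start nor body. Beyond the gene, stretches of Tat at 11072 to 11089 and at 12878 to 12916 bp differed by 27.0 and -18.9 points with 3 cytosines each, and neither was called.

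Hal, the histidase that begins histidine breakdown, lies on chromosome 10 (93488768 to 93516761, plus strand). Its start window stood at 14.1% in control and 29.6% in fasted liver over 9 cytosines, a difference of 15.5 points (3.88 to 27.0) that did not pass the test (adjusted p = 0.840, Fisher's exact test). The strands disagreed. At 290 to 482 bp after the start the 4 plus-strand cytosines, with 31 reads each in control and 44 in fasted liver, stood at 20.2% and 17.6%. The 4 minus-strand cytosines, with only 8 and 6 reads each, stood at 9.38% and 45.8%. The stretch of 7 cytosines at 447 to 482 bp, at 16.4% and 35.9%, had the widest difference within Hal and was not called. With a minimum of 10 reads the start of Hal differed by -2.55 points. The Hal body stood at 43.0% and 43.6%, a difference of 0.60 points (-4.39 to 5.58). A weakly methylated stretch of 16 cytosines lay near the far end of Hal, 27387 to 27566 bp after the start, at 7.92% and 7.84%.

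**Figure D3:**
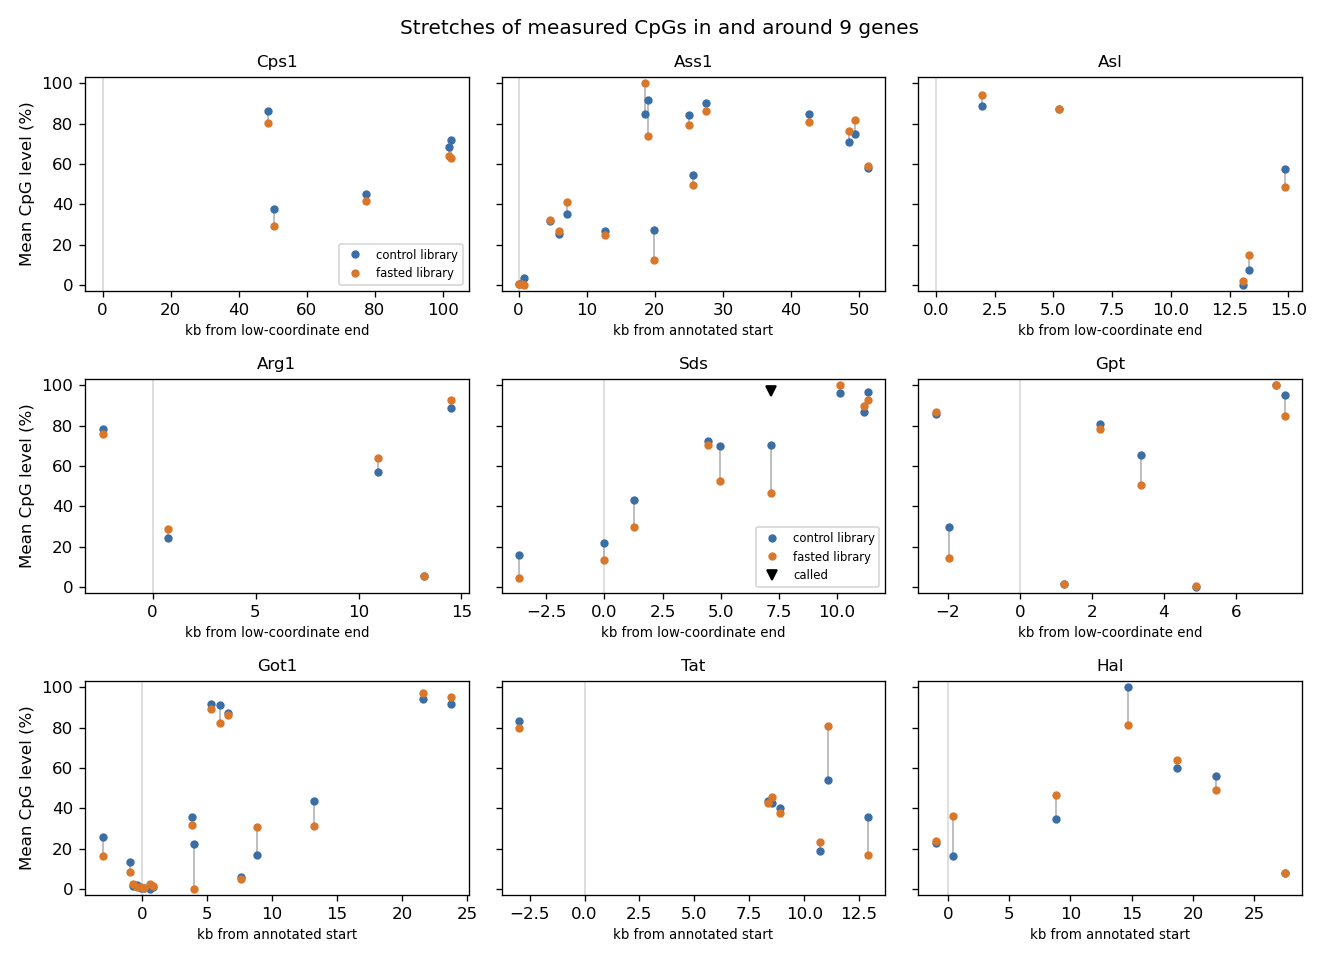
Mean level of each stretch of measured CpGs against its distance in kb from the annotated start (Ass1, Got1, Tat, Hal) or from the low-coordinate end, with control in blue, fasted in orange and a grey line joining them. The stretch across the start of Ass1 (0.591% and 0.408%), that across the start of Got1 (0.448% and 0.752%) and 1 stretch inside Gpt (1.43% and 1.46%) lie close to 0, and the called stretch of Sds, at 70.1% and 46.8%, is marked by a black triangle.

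Across the 9 genes 81 stretches were tested, of which 34 had a higher and 46 a lower value in the fasted library. Another 2 stretches crossed the 5 kb limit and were left out. Among all 228837 stretches 113569 were higher and 109790 lower in the fasted library. The Sds stretch was the only one of the 81 that was called (adjusted p = 0.00355, Fisher's exact test), and among all stretches 1.35% were called. The median absolute difference was 3.93 points at the 9 genes and 3.87 points over all stretches. Of the 709 cytosines 0 were called by Fisher's exact test with a required 25 points, 17 had an unadjusted p under 0.05, and the background share of calls was 0.0542%. Of the 17, 5 were in Sds, 4 in Asl, 3 in Ass1, 2 in Got1 and 1 each in Cps1, Tat and Hal, with 0 in Arg1 and Gpt. Over all cytosines 1.85% had an unadjusted p under 0.05.

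Among cytosines with 10 reads or more in each library, the largest rise and fall in each gene are given with the other strand of the CpG where it was measured. Since they were chosen as extremes, a smaller difference on the other strand is no result. In Sds the largest decrease, at position 120483685 on the minus strand, was from 81.3 to 44.4%, and the plus strand stood at 66.7% and 36.8%. In Gpt the largest decrease, at position 76698957 on the minus strand, was from 66.7 to 29.4%, and the plus strand stood at 54.5% and 21.4%. In these CpGs and in the CpG of Asl both strands were lower in the fasted library. In Cps1 the largest decrease, at position 67224783, was from 100 to 63.6%, while the other strand stood at 81.8% and 85.7%. In Ass1 the largest decrease, at position 31482947, was from 33.3 to 3.57%, while the other strand stood at 12.5% and 11.1%. The largest increase in Arg1, at position 24915941, was from 10 to 46.4%, with 26.3% and 26.7% on the other strand. In Asl the largest increase, at position 130016526, was from 60 to 95.2%, with 87.5% and 90% on the other strand. In Sds the largest increase, at position 120476572, was from 15 to 33.3%, while the other strand went from 83.3% of 6 reads to 20% of 10. The largest increase in Got1 was from 0 to 38.5%, with 0% and 12.5% on the other strand, that in Gpt from 54.5 to 85.7%, with 75% and 76.5%, and that in Cps1 from 87.5 to 100%, with 100% and 87.5%. Without a measured other strand, the largest increases were from 57.1 to 100% in Hal, from 33.3 to 66.7% in Tat and from 66.7 to 87.5% in Ass1. The largest decreases of the remaining genes were from 36.8 to 13.3% in Arg1, from 40 to 16.7% in Tat, from 40.9 to 16.7% in Got1 and from 78.9 to 60% in Hal, where the other strand went from 0% of 5 reads to 25% of 8, and none of the cytosines named here was called.

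The strands of the same CpG were also compared within a library. At 102 CpGs of the 9 genes with a mean level between 10 and 90%, the strands differed by a median of 12.6 points in control and 12.5 points in fasted liver. Between the libraries the same CpGs differed by a median of 12.7 points on either strand. Over all 201125 such CpGs the medians were 12.1 and 11.9 points between libraries and 12.4 and 11.5 points between strands. At these depths counting error enters every such gap, so the medians do not show how far the libraries differ.

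The other genes of amino acid breakdown and nitrogen disposal were described from a list of 65, all of which matched the RefSeq table. Of 48 tested windows at the starts and ends of 47 of them, 1 was called lower and 0 higher. Over all windows 0.678% were called lower. Bhmt, the betaine-homocysteine methyltransferase, fell at its start from 30.7% to 5.51% over 8 cytosines, a difference of -25.1 points (-37.6 to -12.7, adjusted p = 0.0159, Fisher's exact test). Of 64 tested bodies 2 were called lower and 0 higher, against 0.797% of all bodies called lower. Amdhd1, which acts after Hal in histidine breakdown, fell in its body to 39.4% from 56.8% in control, with 30 of 34 cytosines lower (adjusted p = 0.00144, Fisher's exact test), while its start stood at 0.692% and 2.36%. Pccb, a subunit of propionyl-CoA carboxylase, fell in its body to 73.0% from 84.6% in control (adjusted p = 0.0118, Fisher's exact test), and differed by -0.91 points with a minimum of 10 reads. These 3 calls were lost with read counts halved and with each region's reads divided by its cytosine number, and that of Pccb also with strands merged (-8.57 points). The next widest gaps at tested starts or ends were decreases and were not called. Aadat, an aminotransferase of lysine and kynurenine breakdown, stood at 42.4% and 26.0%, Slc38a3, a glutamine transporter, at 31.7% and 18.3% at its high end, and Slc38a4, a neutral amino acid transporter, at 48.5% and 35.8%. The largest increase among these windows was at the start of Bcat2, from 59.4% to 69.6% over 41 cytosines (10.2 points, 3.73 to 16.7). It was not called either. The median window of the list stood at 1.54% and 1.69%, and the median body at 65.8% and 64.9%, with 19 windows higher and 28 lower and 23 bodies higher and 41 lower. Of the 48 windows 41 differed by no more than 5 points, as did 43 of the 64 bodies. Over all tested windows 12967 were higher and 12521 lower, and over all tested bodies 12693 were higher and 12562 lower.

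**Figure D4:**
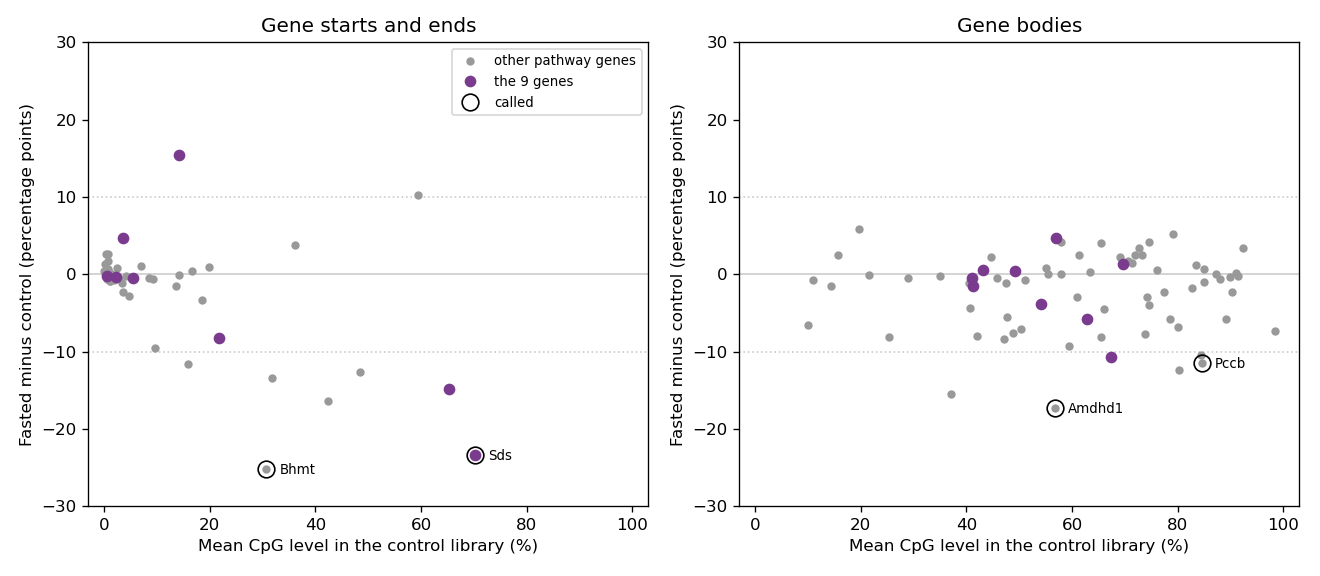
Fasted minus control difference in percentage points against the control level for each tested start or end window (left) and gene body (right) of the 9 genes (purple) and the 65 other pathway genes (grey), with dotted lines at 10 points and black rings around called regions. The called regions are the high end of Sds, the start of Bhmt and the bodies of Amdhd1 and Pccb, all lower in the fasted library.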

How the data were processed

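Per the labels' protocols, liver DNA was cut with TaqαI and MspI, ligated to methylated adapters, size-selected, bisulfite converted, amplified and sequenced on an Illumina HiSeq. Bismark 0.14.3 and bcl2fastq 1.8.4 are listed by the submitters' processing notes, as is mm10. How reads were trimmed, and how duplicates and overlapping mates were handled, is not stated there or in the labels.

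The deposited files list methylated and total reads for each CpG cytosine and strand in a text field, and a deposited score column holds the methylated fraction on a scale of 1000, which the read counts gave back to within 0.5. The read counts were used, with no normalization. Positions count from 1. All 262697 measured cytosines in the promoter windows of the RefSeq table fell on a CG of its GRCm38.p6 sequence.

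A cytosine was kept where each library had 5 reads or more. For windows, bodies, stretches and cytosines, Fisher's exact test was two-sided, and p-values were adjusted by Benjamini and Hochberg over all units on the 19 autosomes and chromosome X (numpy 2.4.6, numba 0.67.0, scipy 1.17.1). A cytosine was called at 25 points and an adjusted p under 0.05. The planned start windows needed a start and strand, which the RefSeq promoter table gave for 4 of the 9 genes, so both ends were used for the other 5. Where several starts were listed, the outermost was taken. Intervals of differences treat reads as independent draws, and those of shares are exact Clopper-Pearson intervals. As PCR copies carry no molecular identifiers, reads can share a molecule, and both kinds of interval cover counting error only.

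The genes, lists and rules were chosen with earlier results of these data known. Named were all 9 genes, called genes of the pathway list and its 4 widest start or end differences with at least 5 cytosines. The largest increase at a start or end of the list was named in addition. Also named were the largest rise and fall among cytosines with 10 reads or more in each gene, and called stretches or else the widest stretch difference. Alternatives changed the read minimum, window, gap, weighting, required difference and strand handling, 1 of them (strands merged with halved reads) chosen after seeing the data. The tests were run on simulated data in which the reads of each cytosine were drawn independently. Those simulations cannot show the effect of molecules shared between cytosines.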

Additional observations from a re-analysis of the deposited data

How the results depend on the processing

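The number of called start or end windows, 1, became 0 with a minimum of 10 or 20 reads, with read counts halved, with each region's reads divided by its cytosine number, and with windows of 250 bp before to 50 bp after. The number of called stretches, 1, became 0 with a minimum of 10 reads, halved counts and divided reads, and with a minimum of 20 reads the called stretch was a different one at the other end of Sds. With strands merged the number of called cytosines rose from 0 to 1, the CpG in Asl. The number of called bodies stayed at 0 under all 11 alternatives run, 1 of which took the span with 5 kb each side instead of the body. Halved counts, divided reads and a larger required difference generally make a call harder to reach, so 0 calls there are no check. With a minimum of 20 reads the bodies of Arg1, Sds and Tat gave no value. The direction turned, without a call on either side, in these cases. With a minimum of 10 reads the difference was 4.72 points at the high end of Arg1, -0.90 in the Asl body, 0.16 at the start of Ass1, -0.10 in the Got1 body, -2.55 at the start of Hal and 3.20 at the start of Slc38a4. With a minimum of 20 reads it was -12.7 points in the Asl body, 1.0 at the start of Ass1, -1.46 in the Got1 body, 0.036 in the Gpt body and -2.55 at the start of Hal. With each read weighted equally it was -2.21 points in the Asl body, 0.083 at the start of Ass1, -4.96 in the Got1 body, 0.39 at the start of Got1, 0.23 in the Gpt body and 0.014 in the Tat body. It was 0.61 points in the Tat body with strands merged, 0.30 at the start of Got1 in the shortest window, and -0.21 points for Got1 over its span with 5 kb each side. The cause was not tested. The Amdhd1 and Pccb bodies differed by -5.68 and -4.02 points over their spans with 5 kb each side, below the required 10 points. The differences at the ends and body of Sds were negative under every alternative that gave a value. Halved counts, divided reads, another required difference and leaving out chromosome X act only on the p-value or the call. Those alternatives left the Sds differences unchanged by construction and are no check of their direction. Leaving out the most deeply read cytosines also gave the same values at the ends and body of Sds. Windows of 1000 bp on each side gave the same values at its ends. Neither adds a check of the direction. The high end of Sds and the start of Bhmt gave no value with a minimum of 20 reads or in the shortest window, nor did Bhmt with a minimum of 10. No paired analysis was possible because there is 1 library per group.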
